A study of Homo sapiens with 4 samples.

Results

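The genes of the proteasome were followed over the 4 conditions of the experiment, which combined androgen ablation with silencing of β-TrCP in LAPC4 cells. LAPC4 is a long-established line of human prostate cancer cells that respond to androgen. Members were genes whose symbol is PSMA, PSMB, PSMC, PSMD, PSME, PSMF or PSMG followed by a number, as the array annotation names them. This gave 39 genes among 9193 measured genes. They were covered by 60 measured probe sets, and each gene was read from its brightest probe set, by the mean over the 4 arrays. PSMA6 and PSME2 were left out because their probe sets also name another gene, and PSMC3IP and PSME3IP1 because they only share the first letters. PSMA8, PSMB11, PSMC5, PSMD7, PSMD13, PSMG3 and PSMG4 were not analysed here.

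All 4 cultures were LAPC4 cells stably infected with a lentiviral vector and treated for 72 hours. The control cells in FCS carried the control vector and grew in 10% fetal calf serum with 100 pM methyltrienolone, a synthetic androgen. The control cells in CSS carried the same vector and grew in 10% charcoal stripped serum, from which steroids are removed. The shRNA cells in FCS and the shRNA cells in CSS carried an shRNA against both β-TrCP isoforms and grew in the same 2 media. The study's text describes this shRNA as inducible, with doxycycline given for 72 hours to switch it on. The array of the last group is called the combined array here. The labels call the control a GFP vector, whereas the study's text describes it both as the shRNA vector without doxycycline and as the vector alone, which carries eGFP. Effects of doxycycline or of the vector can therefore not be told apart from those of the shRNA. Charcoal stripped serum lacked the added androgen and the other steroids of serum alike, which cannot be told apart either. Each condition had 1 Affymetrix U133 array, so that differences between conditions have no replicate check and the number of arrays limits the precision.

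The proteasome is the protease that degrades proteins tagged with ubiquitin. Its 20S core is a barrel of outer alpha rings and inner beta rings, and the beta subunits PSMB5, PSMB6 and PSMB7 carry the catalytic sites. The 19S cap binds the tagged substrate, removes its ubiquitin and feeds it into the core, with a base of PSMC ATPases and a lid of PSMD subunits. Interferon induces PSMB8, PSMB9 and PSMB10, which replace the catalytic subunits to form the immunoproteasome. PSMG1, PSMG2, PSMD5, PSMD9 and PSMD10 are chaperones that help the particle to assemble and leave it afterwards, and the PSME proteins are alternative caps. β-TrCP stands upstream of this machine, as a substrate receptor of an SCF ubiquitin ligase.

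Proteasome genes are known targets of the transcription factors NFE2L1 and NFE2L2, which bind antioxidant response elements, and of NF-Y, which binds CCAAT boxes. The 250 bases before the transcription start were read from RefSeq promoter windows (GRCh38.p14) for 34 of the 39 members. PSMA7, PSMB1, PSMB6, PSMB7 and PSMD4 had no matching window. The windows of 5 members are shown, since the values below turn on them: PSMA3 at chr14:58244593-58244842 (plus strand), PSMA2 at chr7:42932175-42932424 (minus strand), PSMD12 at chr17:67366578-67366827 (minus strand) and PSMG1 at chr21:39183452-39183701 (minus strand), which were lower in CSS, and PSME1 at chr14:24135944-24136193 (plus strand), which was higher in CSS in control cells. Each is written 5′ to 3′ on the strand of its gene and ends at the last base before the start. Capitals mark matches on either strand to TGACNNNGC, the core of the antioxidant response element, or to CCAAT, and no marked pair overlaps.
PSMA3: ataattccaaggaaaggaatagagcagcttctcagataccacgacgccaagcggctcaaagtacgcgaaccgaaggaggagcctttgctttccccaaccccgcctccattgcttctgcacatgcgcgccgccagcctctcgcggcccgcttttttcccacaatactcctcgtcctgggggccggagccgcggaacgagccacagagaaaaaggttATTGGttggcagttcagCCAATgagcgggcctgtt
PSMA2: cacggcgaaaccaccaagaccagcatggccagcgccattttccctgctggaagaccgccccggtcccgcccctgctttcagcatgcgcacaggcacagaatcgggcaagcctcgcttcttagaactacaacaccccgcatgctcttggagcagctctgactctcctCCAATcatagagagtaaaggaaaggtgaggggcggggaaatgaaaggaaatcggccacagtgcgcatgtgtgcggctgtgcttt
PSMD12: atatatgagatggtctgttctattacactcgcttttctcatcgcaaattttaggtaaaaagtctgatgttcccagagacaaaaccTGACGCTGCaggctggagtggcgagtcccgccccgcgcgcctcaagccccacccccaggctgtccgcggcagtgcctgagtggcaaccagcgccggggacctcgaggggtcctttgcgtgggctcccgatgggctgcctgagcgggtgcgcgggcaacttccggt
PSMG1: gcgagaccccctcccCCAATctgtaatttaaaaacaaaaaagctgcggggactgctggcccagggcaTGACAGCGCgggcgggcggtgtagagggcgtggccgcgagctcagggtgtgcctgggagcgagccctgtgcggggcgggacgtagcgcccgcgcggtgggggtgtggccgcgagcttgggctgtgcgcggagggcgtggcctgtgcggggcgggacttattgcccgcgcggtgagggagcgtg
PSME1: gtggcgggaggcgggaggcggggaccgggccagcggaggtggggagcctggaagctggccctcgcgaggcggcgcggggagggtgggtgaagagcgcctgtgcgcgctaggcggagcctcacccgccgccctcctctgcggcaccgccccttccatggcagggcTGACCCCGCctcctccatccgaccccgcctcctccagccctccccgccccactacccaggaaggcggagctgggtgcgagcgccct

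The window of PSMA3 held a CCAAT match 18 bases and another 35 bases upstream of the start, and that of PSMA2 one at 84 bases. PSMD12 had an antioxidant response core 165 bases upstream and PSME1 had one 86 bases upstream. PSMG1 held both, the core at 183 and the CCAAT box at 235 bases. TGACNNNGC occurred in 10 of the 34 member windows (29.4%), against 11.0% of 27305 windows of the same length over all genes. CCAAT occurred in 15 member windows (44.1%) against 33.0%. The androgen receptor recognition core AGAACA was found in 5 member windows (14.7% against 12.4%), PSMB8 and PSMD12 among them, and the interferon response core GAAANNGAA in 3 (8.82% against 7.06%), PSMA4, PSMB4 and PSMB10. These are counts of letters in a window, and no binding was measured here.

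Normalized log2 signals are given throughout, in the order control FCS, control CSS, shRNA FCS and combined array. The shRNA target FBXW11 (β-TrCP2) had signals of 8.02, 8.19, 5.02 and 4.68, and passed limma for the shRNA (-3.25 ± 0.413 SE on the log2 scale, adjusted p = 2.24e-12). The other target, BTRC (β-TrCP1), was dim at 4.50 and 4.64 without the shRNA and lay at the floor of 4.32 with it. The combined array stood apart from the rest. Before normalization its values had an interquartile range of 2.07, against 2.69 to 2.74 on the other arrays, and over probe sets it correlated with them at r = 0.934 to 0.936, whereas the others correlated with each other at 0.979 to 0.990. Across the members the correlations were 0.964 to 0.983, with no such gap, but members and probe sets were not matched for brightness. Among markers of prostate luminal cells, KLK2, KLK3, TMPRSS2, HOXB13, KRT8 and KRT18 were well above the floor on every array, and ACP3 was at or near it. Their levels differed between conditions, and in each CSS pair 4 of the 7 were higher in CSS and 3 lower. KRT8 and KRT18 were higher by 0.74 and 0.30 in control cells and by 0.58 and 0.33 in shRNA cells, on the log2 scale. KLK3 (prostate-specific antigen) and KLK2, genes that androgen induces, went against the serum label in control cells. KLK3 had signals of 9.00, 9.74, 8.02 and 8.37 and KLK2 of 8.30, 9.00, 7.07 and 6.59, so that on the control array labelled CSS they were 1.66-fold and 1.62-fold higher than in FCS. TMPRSS2, another gene induced by androgen, was lower there, with signals of 8.22, 7.73, 7.66 and 7.52. KLK3 passed limma as higher for CSS (adjusted p = 0.00552, but 0.922 as deposited and 0.4 after scaling to a common median), and KLK3 and KLK2 as lower for the shRNA (adjusted p = 9.63e-15 and 2.29e-15). The directions below rest on the labels. The comparison of CSS with FCS within the shRNA cells does not use the control array labelled CSS. There too KLK3 was 0.34 higher in CSS on the log2 scale, whereas KLK2 was 0.48 lower and TMPRSS2 0.14 lower. Of 5 measured leukocyte markers, 3, 4, 3 and 1 were at the floor, with a summed signal of 109, 107, 113 and 187. Of 5 fibroblast markers, 3, 3, 3 and 0 were at the floor, with a summed signal of 118, 113, 115 and 178.

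On the control array labelled CSS, most proteasome genes read lower than in FCS, by small amounts. In control cells 26 of the 37 members above the floor were lower in CSS than in FCS and 11 were higher, with a median log2 difference of -0.12, whereas 46.7% of 7978 genes were lower and their median difference was 0.02. Only PSMD12 was at least 1.5-fold lower and no member was at least 1.5-fold higher, against 2.23% and 2.46% of all genes. In a bulk culture, less RNA per cell and fewer cells of one kind cannot be told apart. No member differed by more than 2 local spreads, which 6.15% of genes did; the local spread is the typical difference between these arrays among probe sets of like signal, and it was 0.30 for the median member.

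**Figure D1:**
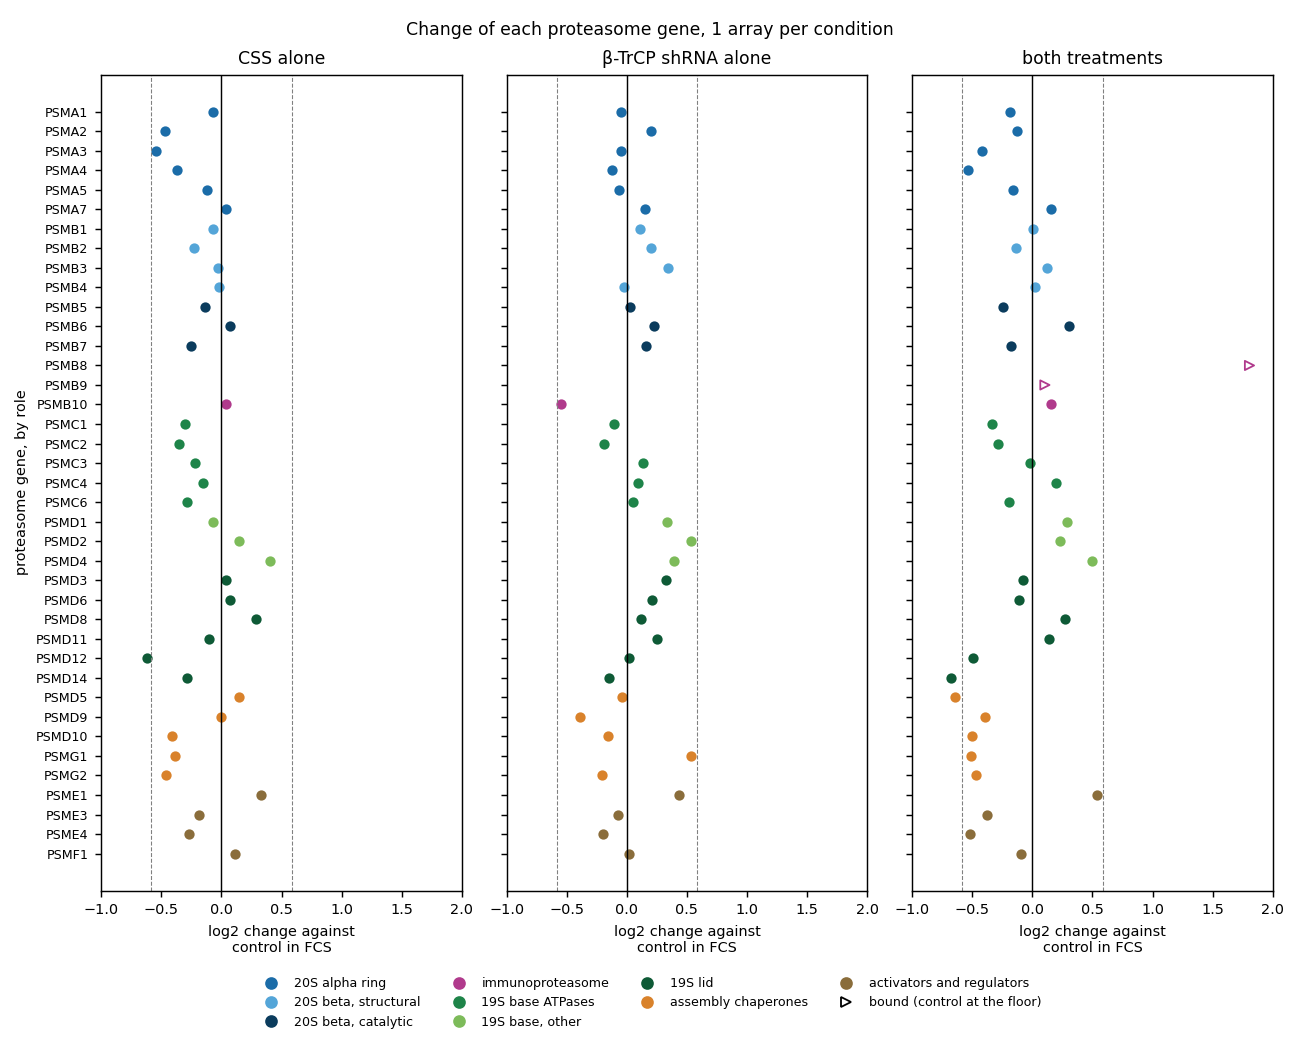
Log2 difference of each of the 39 proteasome genes (rows, grouped and coloured by role) from control cells in FCS, for CSS alone, β-TrCP shRNA alone and both treatments, with 1 array per condition. Dashed lines mark 1.5-fold; open triangles are lower bounds for genes at the floor in the control. With CSS, 26 of 37 members lie left of 0, and PSMD12 at -0.62 is the only one past the dashed line.

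The difference ran through the roles unequally. All 5 measured ATPases of the 19S base were lower in CSS, from -0.35 (PSMC2) to -0.15 (PSMC4), although the dimmer probe set of PSMC2 differed by 0.40. Of the alpha ring genes, 5 of 6 were lower, with a median of -0.24. The 4 structural beta genes were all lower but by little, with a median of -0.05. Of the catalytic subunits, PSMB7 (trypsin-like site) differed by -0.25 and PSMB5 (chymotrypsin-like site) by -0.14, while PSMB6 (caspase-like site) differed by 0.07. The assembly chaperones had the lowest median of any role, -0.39, with PSMG2 at -0.46, PSMD10 at -0.41 and PSMG1 at -0.39, while PSMD9 read 7.99 and 7.98 and PSMD5 differed by 0.14. Of the 3 non-ATPase genes of the base, 2 were higher, with a median of 0.15. The lid was split, with 3 genes higher and 3 lower, and so were the activators and regulators, with 2 of each.

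PSMD12, a scaffold subunit of the lid, had log2 signals of 8.38, 7.76, 8.40 and 7.88. Both CSS arrays lay below both FCS arrays, by 0.62 in control cells and by 0.51 in shRNA cells. Its dimmer probe set read 6.64, 6.63, 6.47 and 5.50, so that it showed no difference with CSS in control cells. PSMA3, an alpha ring subunit, had signals of 9.80, 9.26, 9.75 and 9.38, and again both CSS arrays were below both FCS arrays. PSMA2, another alpha ring subunit, had signals of 10.24, 9.77, 10.44 and 10.11. Its dimmer probe set read 6.29, 6.27, 5.71 and 5.57 and was lower with the shRNA rather than with CSS. PSMG1, which acts with PSMG2 as a chaperone of alpha ring assembly, had signals of 7.45, 7.07, 7.99 and 6.95. It had the widest range of the 37 members over the 4 arrays, 1.04, whereas PSMB4, a structural beta subunit, had the narrowest, 0.05. The median member ranged over 0.39, and the median of 6966 genes above the floor on all arrays over 0.58. These sets were not matched for brightness, and dimmer genes scatter more.

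A few genes went the other way. PSMD4, the ubiquitin receptor of the 19S base, had signals of 9.79, 10.19, 10.18 and 10.29, so that every treated array was above the control in FCS. Its dimmer measured probe sets above the floor differed the same way, by 0.36 and 0.25 with CSS alone and by 0.33 and 0.17 with the shRNA alone. PSME1, a subunit of the PA28 activator, had signals of 8.67, 9.00, 9.10 and 9.21, again lowest in the control in FCS. PSMD8, a lid subunit, had signals of 9.58, 9.87, 9.70 and 9.85, with both CSS arrays above both FCS arrays. With the values as deposited, the CSS differences of PSMD4, PSMD8 and PSME1 in shRNA cells were -0.08, -0.08 and -0.19.

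**Figure D2:**
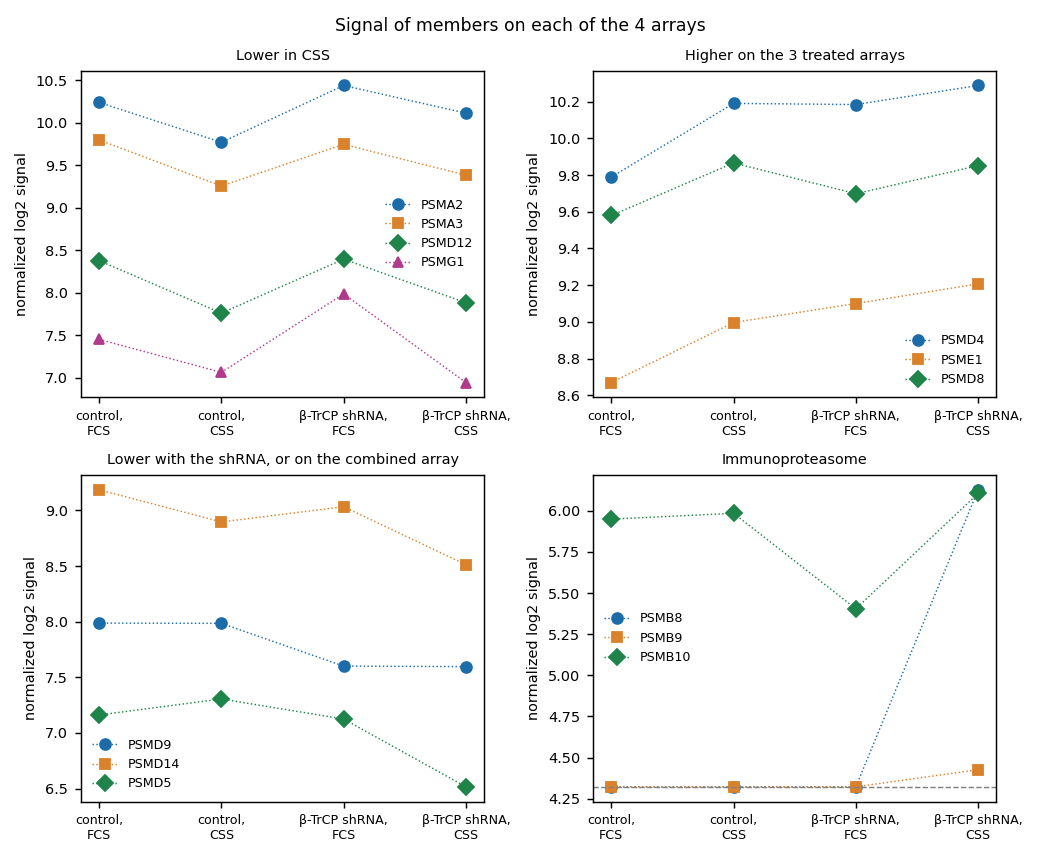
Normalized log2 signal of 13 proteasome genes on each of the 4 arrays (1 point per array; dotted lines only join points of a gene; axes do not start at 0 and differ between panels). PSMA2, PSMA3, PSMD12 and PSMG1 dip on the CSS arrays, PSMD4 and PSME1 are lowest in control cells in FCS, and PSMB8 leaves the floor of 4.32 (dashed) only on the combined array.

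CSS was also compared with FCS within the shRNA cells, a pair of arrays that shares none with the control pair. Here 29 of 39 members were lower, with a median of -0.22, against 47.9% of 8733 genes. PSMB8 and PSMB9 passed the filter only through the combined array and could only count as higher. Without them 29 of 37 members were lower, against 49.9% of 6966 genes. Over the 37 members above the floor on all arrays, 24 (64.9%) were lower in CSS in both pairs and 6 (16.2%) were higher in both, namely PSMA7, PSMB6, PSMB10, PSMD4, PSMD8 and PSME1. Of all 6966 such genes, 27.3% were lower in both and 30.7% higher in both. The lower members were 10 of the 13 genes of the 20S core, 8 of the 14 of the 19S cap and 4 of the 5 assembly chaperones. Across genes, which are not independent replicates, the 2 sets of CSS differences correlated at r = 0.51 for the members and 0.22 for all genes. With the values as deposited, without quantile normalization, 26 members were lower in both pairs (34.1% of genes) and 1 was higher (17.3%). With the mean over probe sets 20 were lower in both (29.2% of genes) and 5 higher (28.7%). The 19S cap then had 7 genes higher and 7 lower with CSS in control cells, with a median of -0.03.

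**Figure D3:**
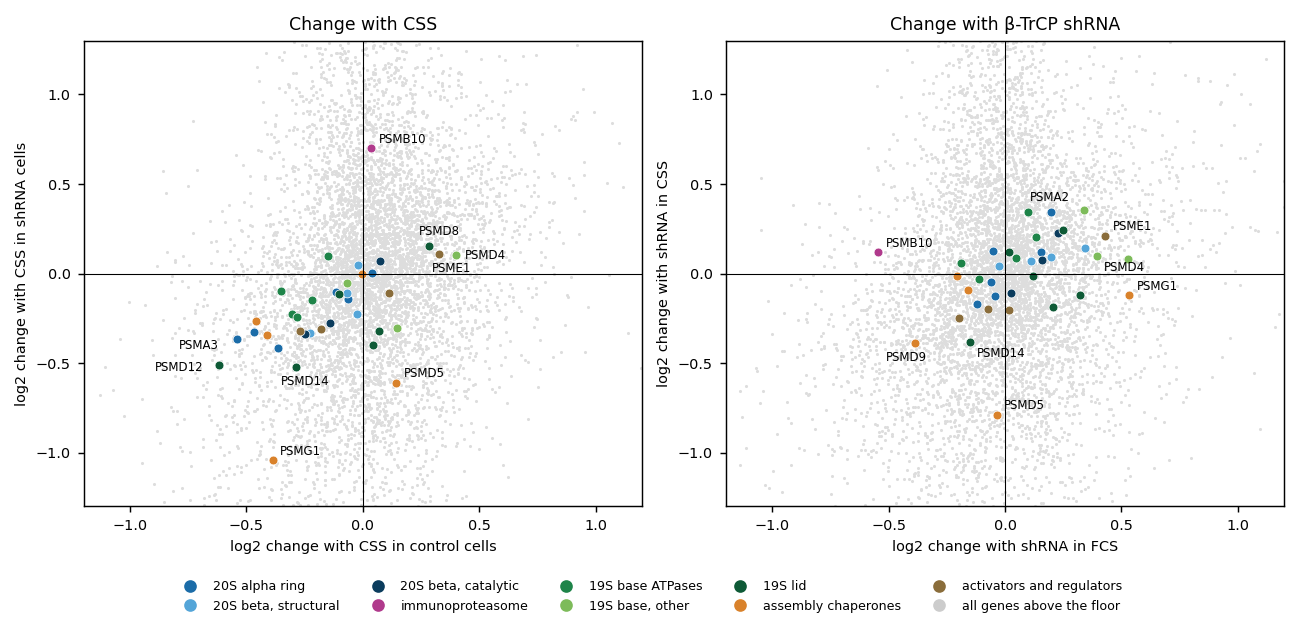
Log2 difference with CSS in control cells against that in shRNA cells (left), and with the shRNA in FCS against that in CSS (right), for the 37 members above the floor on all arrays (coloured by role) and all other such genes (grey; genes beyond the axes are not drawn). On the left 24 members lie lower left of both zero lines; on the right 16 lie in the upper right and 11 in the lower left.

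Within the shRNA cells the members at least 1.5-fold lower in CSS were PSMG1 and PSMD5, against 16.0% of all genes, and those at least 1.5-fold higher were PSMB8 and PSMB10, against 17.4%. PSMG1 was 2.06-fold lower and was the only member past 2 local spreads (3.10% of genes). PSMD5, a chaperone of the base, was 1.53-fold lower, with signals of 7.16, 7.31, 7.13 and 6.52, so that only the combined array was low.

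The only test the design allowed was an additive limma model of serum and shRNA over all 4 arrays, with 1 residual degree of freedom. For CSS, 3 of 37 members passed, all of them lower, and 2.99% of 7949 genes did. PSMA3 fell by 0.45 ± 0.110 (SE; adjusted p = 0.00329), PSMA2 fell by 0.40 ± 0.0969 (adjusted p = 0.00346) and PSMD12 fell by 0.56 ± 0.176 (adjusted p = 0.0461), on the log2 scale. At an unadjusted p under 0.05, 14 members were lower and 2, PSMD4 and PSMD8, were higher, and 13.2% of all genes passed. Just outside the threshold, PSMG2 had an effect of -0.36 (adjusted p = 0.0573), PSMA4 one of -0.39 (0.0602) and PSMD14 one of -0.40 (0.0613). The 3 calls rest on variances taken wholly from the trend across genes. How far the pairs of arrays disagreed for a gene therefore had no weight of its own in that gene's test. No member passed limma without that trend, with the values as deposited or with arrays scaled to a common median. With the mean over probe sets PSMA2 and PSMD12 did not pass. At an unadjusted p under 0.05 for CSS, 0 members remained without the trend. As deposited 11 did and with a common median 9, all of them lower. Without the trend 0 of 7949 genes passed for either factor, FBXW11, KLK2, KLK3, B2M and PDIA3 included, and 3.90% and 4.88% had an unadjusted p under 0.05 for CSS and for the shRNA.

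With β-TrCP shRNA alone the members were split, and the roles differed in how. In FCS 22 of 37 members were higher with the shRNA and 15 were lower, with a median of 0.05, while all 7980 genes were split evenly with a median of 0.00. No member was 1.5-fold higher or lower, against 3.21% and 3.35% of genes. The 3 non-ATPase genes of the 19S base were all higher, PSMD2 by 0.53, PSMD4 by 0.40 and PSMD1 by 0.34, and 5 of 6 lid genes were higher. The 3 catalytic subunits were higher by 0.03 to 0.23. Of the assembly chaperones, 4 of 5 were lower and PSMG1 was higher by 0.53.

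PSMD2, a scaffold of the base, had log2 signals of 8.60, 8.74, 9.13 and 8.82. PSMD9, a chaperone of the base, had signals of 7.99, 7.98, 7.60 and 7.60, so that both shRNA arrays were 0.39 below both control arrays. PSMB10, an immunoproteasome subunit, had signals of 5.95, 5.98, 5.40 and 6.10. It was the only member past 2 local spreads for the shRNA in FCS (8.06% of genes), with a difference of -0.54, and was 0.12 higher with the shRNA in CSS, a difference that was -0.29 with the values as deposited.

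In CSS 22 of 39 members were higher with the shRNA and 17 lower, with a median of 0.07 against 0.01 for 8731 genes. PSMB8 and PSMB9 passed the filter only through the combined array and could only count as higher. Without them 20 of 37 members were higher, against 48.1% of 6966 genes above the floor on all arrays. This balance depended on the scaling: with the values as deposited only 6 members were higher and 33 lower, and the median was -0.24, beside -0.20 for all genes. PSMB8 was at least 1.5-fold higher (16.7% of genes) and PSMD5 was 1.73-fold lower (16.4% of genes were at least 1.5-fold lower). No member lay past 2 local spreads (3.94% of genes). PSMD1 and PSMC4, both of the 19S base, were 0.35 higher, and with the values as deposited their differences were -0.06.

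In both pairs of arrays that compare the shRNA with the control, 16 members (43.2%) were higher and 11 (29.7%) were lower, against 27.6% and 30.0% of all genes. All 3 non-ATPase base genes were among the higher ones, as were 7 of the 13 core genes, while 4 of the 5 assembly chaperones were among the lower ones. The dimmer probe set of PSMD1 differed by 0.28 with the shRNA in FCS and by -0.13 in CSS. That of PSMA2, a core gene, differed by -0.58 and -0.71. In each of these pairs, 8 of 14 members with at least 2 probe sets had them all in the same direction. With the values as deposited 4 members were higher in both and 14 lower, against 13.8% and 38.4% of all genes. For the shRNA 0 of 37 members passed limma, against 4.68% of genes, and the lowest adjusted p was 0.0903, for PSMA2 (0.27 higher). At an unadjusted p under 0.05, 8 members were higher and 1, PSMD14, was lower, against 13.0% of genes. The 8 were PSMA2, PSMB3, PSMB6, PSMD1, PSMD2, PSMD4, PSMD11 and PSME1. With the values as deposited, or without the trend, 0 members had such a p. With a common median 4 were higher and 1 lower. With the mean over probe sets the effect of PSMA2 was -0.19.

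With both treatments against control cells in FCS, 24 of 39 members were lower and 15 higher, with a median of -0.13 against 0.03 for 8700 genes. Without PSMB8 and PSMB9, which could only count as higher, 13 of 37 members were higher, against 50.3% of 6966 genes above the floor on all arrays. This comparison uses the same control array as the single treatments. PSMD14 and PSMD5 were at least 1.5-fold lower, against 16.3% of genes, and PSMB8 was at least 1.5-fold higher, against 18.2%. The share of members past 1.5-fold was below that of all genes in both directions, but these sets were not matched for brightness. Members had a median log2 signal of 9.12 to 9.27 on the arrays. Among genes with a signal of at least 100 on 1 array, 11.2% were at least 1.5-fold lower and 9.87% higher. Of the 36 members in that set, 1 was lower and 0 were higher. No member lay past 2 local spreads (3.52% of genes). With the values as deposited 2523 genes were at least 1.5-fold lower and 1077 higher, in place of 1420 and 1582, and 32 of 39 members were lower, with a median of -0.40 beside -0.16 for all genes.

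PSMD14, the deubiquitinase of the lid, had log2 signals of 9.19, 8.90, 9.03 and 8.51. Each single treatment read lower than the control in FCS, and the combined array was lowest, 1.59-fold below. PSMA4 of the alpha ring had signals of 9.28, 8.91, 9.16 and 8.74, in the same order. All 5 assembly chaperones were lower on the combined array, from -0.65 (PSMD5) to -0.39 (PSMD9), with a median of -0.50. All 5 were also lower there under the other scalings, with medians of -0.65 with a common median of the arrays and -0.93 as deposited. Among the alternative caps, PSME4 (PA200) differed by -0.52 and PSME3 (PA28 gamma) by -0.38, whereas PSME1 differed by 0.54. PSMF1, an inhibitor of the core, differed by -0.09. Over the 37 members, 16 had their lowest signal on the combined array and 13 on the control array in CSS, while 15 had their highest on the shRNA array in FCS and 12 on the control array in FCS. The same was not counted over all genes. A trait of the members and a trait of the arrays can therefore not be told apart here.

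**Figure D4:**
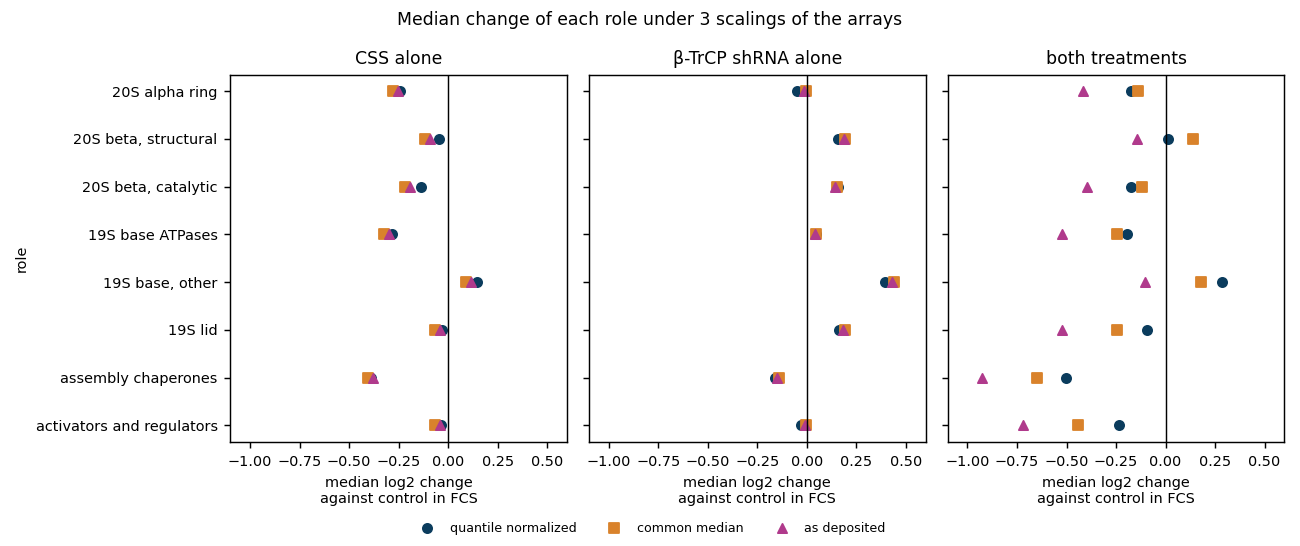
Median log2 difference from control cells in FCS for 8 roles of proteasome genes under 3 scalings of the arrays. The scalings nearly coincide for CSS alone and for the shRNA alone. With both treatments the deposited values lie lower, at -0.93 for the assembly chaperones and -0.10 for the non-ATPase base genes, which are at 0.29 after quantile normalization.

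The immunoproteasome genes were dim in LAPC4 cells. PSMB8 was at the floor of 4.32 on 3 arrays and read 6.13 on the combined array, so that it was at least 3.50-fold higher there. PSMB9 was at the floor on the same 3 arrays and read 4.43. Of the 1102 genes at the floor on those arrays, 767 (69.6%) were above it on the combined array, 15 (1.36%) at or above the signal of PSMB8 and 635 (57.6%) at or above that of PSMB9. The filter kept genes bright enough on any array, and PSMB8 and PSMB9 passed it only through the combined array. Among genes at the floor elsewhere it thus favoured those above the floor there, and these shares depend on it. The local spread at the signal of PSMB8 was 1.23, so that its difference of 1.81 was within 2 spreads. On the same array the leukocyte marker LCP1 was 1.63 higher on the log2 scale and the summed leukocyte and fibroblast markers were highest. Whether these have a part in the signal of PSMB8 was not tested.

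Of the genes that present proteasome products, the class I genes HLA-C, HLA-B and HLA-F were 1.10, 0.80 and 0.64 higher on the combined array than in control cells in FCS, and TAPBP, which loads peptides, was 0.92 lower. The HLA genes are near-identical in sequence, so that their probes may read one another. None of these 4 passed limma for either factor. TAP2 was at the floor on all arrays. The list had 9 genes in the test, and 2 passed for both factors, named after their values were seen. B2M, the light chain of class I molecules, had signals of 9.68, 8.96, 9.94 and 9.63, fell by 0.52 with CSS (adjusted p = 0.000266) and rose by 0.47 with the shRNA (adjusted p = 0.00126). PDIA3, a chaperone of class I folding, rose by 0.37 with CSS (adjusted p = 0.00258) and fell by 0.53 with the shRNA (adjusted p = 6.54e-07). With the values as deposited the CSS calls of both were lost (adjusted p = 0.206 and 0.579), as was that of B2M for the shRNA (0.68), and with a common median the CSS calls of both and the shRNA call of PDIA3 (0.0757, 0.256 and 0.176). Of 5 interferon-stimulated genes tested, 0 passed for either factor, and only OAS1 had an unadjusted p under 0.05, for the shRNA. ISG15 had signals of 6.61, 6.62, 7.21 and 7.07, higher on both shRNA arrays, and on the combined array IRF9 was 0.61 lower, IRF7 0.29 lower and IFIT3 0.21 higher.

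Partners of the proteasome outside the PSM families were described from lists of their own. Of 10 other proteasome-associated genes, 7 were higher in CSS in control cells (53.2% of all genes) and 3 lower, with a median of 0.08. In shRNA cells the CSS difference was positive for 4 (52.0% of all genes) and negative for 6, and its median was -0.15. With both treatments the difference from control cells in FCS was positive for 3 and negative for 7 (median -0.06). Of the 10 genes, 0 passed limma for either factor, with 0 at an unadjusted p under 0.05. On the combined array UBE3C, a ubiquitin ligase that associates with the proteasome, was 0.51 lower and ECPAS 0.25 lower, while ADRM1, a ubiquitin receptor, was 0.31 higher and TXNL1 0.26 higher. Of 9 transcription factors and their processing genes, 0 passed limma, and 1 had an unadjusted p under 0.05, FOXO3, which was higher in CSS. NFE2L1 had signals of 8.37, 8.33, 8.34 and 8.73, highest on the combined array, and KEAP1, a repressor of NFE2L2, was 0.37 higher there. NGLY1, which activates the NFE2L1 protein, was 1.01 lower and NFYA, a subunit of NF-Y, 1.33 lower on that array. Both are dim, and 16.3% of all genes were at least 1.5-fold lower there. The local spread of PSMB10, a member about as dim, was 0.78 in this comparison. MAFF, a small MAF partner of NFE2L1, had signals of 5.87, 6.27 and 6.15 and lay at the floor on the combined array, at least 2.92-fold lower than in control cells in FCS. Of 9 ubiquitin and shuttle factors, 0 passed limma, and UBA1 in CSS and UBQLN2 with the shRNA had an unadjusted p under 0.05. RAD23B, a shuttle that brings ubiquitylated proteins to the proteasome, had signals of 8.96, 9.82, 9.63 and 9.19, and UBA6 was 1.35 lower, NPLOC4 0.39 lower and VCP 0.16 higher on the combined array. UBQLN2, another shuttle, had signals of 6.11, 6.24 and 5.88 and lay at the floor there, at least 3.45-fold lower.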

How the data were processed

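RNA of 4 LAPC4 cultures was hybridised to Affymetrix U133 arrays, 1 per condition, from 6 µg of total RNA per the labels. The deposited values are log2 signals of 22277 probe sets; the authors name MAS5, a minimum intensity of 20 on 1 array and quantile normalization. The deposited columns do not share a distribution, so filter (signal of at least 20 on 1 array, 15678 probe sets) and quantile normalization were applied here, followed by a floor of 20 (log2 4.32). Whether the deposited values were scaled otherwise was not tested. In the annotation 19070 probe sets carry 1 gene, 1043 carry several and 2164 carry none, and only the first kind was used. No column was without a sample (0).

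Differences between 2 arrays carry no test. A gene at the floor on 1 array has a bound, and on both no fold. The local spread is 1.48 times the median absolute deviation of the differences of the 1000 probe sets closest in brightness. limma 3.58.1 (R 4.3.3) fitted serum and shRNA additively over 7949 genes above the floor on at least 2 arrays, with a variance trend and Benjamini-Hochberg adjustment over all of them at 0.05; any interaction counts as error. Both steps were run on simulated data. For limma these had independent noise with the variances of the fitted model, additive effects and no array that stood apart. They do not bear on how the model fared with the combined array. Python 3.11.15, numpy 2.4.6, pandas 2.3.3 and matplotlib 3.10.9 were used otherwise. Alternatives were a common median, the deposited values without normalization, no floor, no filter, a 2-fold rule, the mean over probe sets, a minimum signal of 100 and limma without the trend. Normalization without the combined array was added after seeing the data.

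Members, roles, companion lists and tests were chosen with earlier results of these data known. Genes named were those at least 1.5-fold changed, the 3 highest and lowest in each comparison, the catalytic subunits, activators, PSMF1, PSMD14 and chaperones, up to 4 genes of each companion list with the largest change with both treatments among those above the floor on both arrays, and the shRNA targets; others illustrate a role or a count and were chosen after their values were seen.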

Additional observations from a re-analysis of the deposited data

How the results depend on the processing

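The lower signals with CSS kept their direction under every scaling, filter and floor tried: the median difference in control cells ranged from -0.16 to -0.08, and in shRNA cells from -0.48 to -0.18. The numbers of members past a limit were less stable, and the causes were not tested. No paired analysis was possible because the replicate number is 1 in every condition and pairs no samples beyond the additive model, which already compares CSS with FCS within each vector and the shRNA with the control within each serum. Dim genes such as PSMB8 were limited by the floor.

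With a 2-fold rule, 0 members were lower with CSS in control cells, 0 with both treatments and 0 with the shRNA in CSS, and 1 was higher and 1 lower with CSS in shRNA cells. As deposited, 0 members were 1.5-fold lower with CSS in control cells and 1 with the shRNA in FCS; with both treatments 14 were lower (median -0.40), with the shRNA in CSS 8 (median -0.24), and with CSS in shRNA cells 14, with 1 higher (median -0.48), against 27.8%, 29.2% and 28.1% of genes lower in these 3 comparisons. This scaling shifted the median of all genes by -0.19 with both treatments (to -0.16), by -0.21 with the shRNA in CSS and by -0.21 with CSS in shRNA cells, and a common median of the arrays shifted the first by 0.08 (to 0.11). Relative to all genes, members stood at -0.16 with both treatments in the main scaling, at -0.24 as deposited and at -0.23 with a common median. With a common median, 1 member was lower with the shRNA in FCS, 2 were higher and 8 lower with both treatments, and 5 were lower with CSS in shRNA cells. With a signal of at least 100 required, 0 members were higher and 1 lower with both treatments, 0 were higher with the shRNA in CSS, and 0 were higher and 1 lower with CSS in shRNA cells. With the mean over probe sets, 0 members were lower with CSS in control cells, 4 with both treatments, 2 with the shRNA in CSS and 4 with CSS in shRNA cells. In that setting 5 members passed limma for CSS, PSMA3 among them, but not PSMA2 (adjusted p = 0.609) or PSMD12 (0.273). Without the floor 2 members passed limma for CSS, and PSMD12 did not (adjusted p = 0.0619). Limma called 0 members for CSS without the trend, as deposited or with a common median, and without the trend 0 of all genes for either factor. With normalization that left out the combined array, chosen after seeing the data, 1 member was lower with the shRNA in FCS. Probe sets of the same gene ran the same way with CSS in control cells for 10 of 14 members that had at least 2, and with the shRNA in FCS for 8 of 14.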
